A study of Mus musculus with 4 samples.

Results

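A set of 10 genes for ATP-dependent chromatin remodellers and their core subunits was followed in RNA-seq of mouse zygotes, which are fertilised eggs that have not yet divided. They were chosen by exact symbol in the deposited count table, and all 10 were found among its 55291 features. The SWI/SNF members were the alternative ATPases Smarca4 (BRG1) and Smarca2 (BRM), the alternative DNA-binding subunits Arid1a and Arid1b, and the core subunits Smarcb1 and Smarcc1. Smarca5 (SNF2H) is the ISWI ATPase, Ino80 and Ep400 are ATPases of the INO80 class, and Chd4 is the main ATPase of the NuRD complex. The labels gave 4 groups with 1 sample each: zygotes injected with an H3.3 MO and their MO control, and zygotes injected with H3.3 S31A and their S31A control. MO is not written out in the labels (in work with embryos it commonly means morpholino), and S31A is the usual notation for serine replaced by alanine. H3.3 is the histone variant placed on chromatin outside DNA replication. The mouse strain, the time of collection, the number of zygotes and what the controls received are not known from the labels, and neither is whether these zygotes carried the H3.3B-HA tag of the series' mouse model.

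Remodellers use ATP to slide, evict or exchange nucleosomes. SWI/SNF complexes mostly open chromatin, ISWI complexes space nucleosomes, the INO80 class moves and exchanges histone variants, and NuRD couples remodelling to histone deacetylation. In the mouse, BRG1 stored by the egg is needed for activation of the embryonic genome, and Smarcb1, Arid1a, Smarca5 and Chd4 are each needed for early development.

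Each sample had 2 count columns, here called libraries 1 and 2. No source says whether they came from separate embryo pools, so they were not counted as replicates, and no test between conditions was possible. Totals ran from 5661621 to 13233371 counts per library. Genes detected numbered 15156 and 14895 in MO control and 13159 and 13359 in MO injected libraries, against 11372 to 11791 in the S31A experiment. Mitochondrial genes held 3.47% to 5.55% of counts in the MO experiment and 7.13% to 10.4% in the S31A experiment. The part of these differences in the ratios below was not tested. Levels are given in CPM, that is counts after TMM scaling for library size. H3f3b, an H3.3 gene, had 2.30 and 10.5 CPM in the MO injected libraries, against 2199 and 1550 CPM in the MO control libraries. H3f3a, also an H3.3 gene, had 8.04 and 52.4 CPM, against 462 and 586 CPM. In the S31A injected libraries H3f3b had 2438 and 2749 CPM, against 1453 and 1819 CPM in the S31A control libraries. H3f3a there had 484 and 648 CPM, against 657 and 563 CPM. Of 10 egg and zygote markers, 0 were at 0 counts in any library, and their sum ran from 5203 to 13135 CPM. Of 8 cumulus and granulosa markers, 6 to 8 were at 0 in each library, and of 5 sperm markers 4 were. MO injected library 1 stood apart in several members below, so ratios without it are given beside the members and named subunits that it moved by over 1.5 times.

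Among members at 10 CPM or more, Smarca4 differed most after S31A injection, and Ino80 lay on opposite sides of its controls in the 2 experiments. Upstream sequence is shown for both. Each is the 250 bases before the RefSeq start in GRCm38.p6, 5′ to 3′ on the gene's strand. Smarca4 is read from chr9:21615919-21616168 on the plus strand and Ino80 from chr2:119477688-119477937 on the minus strand. Capitals mark GC boxes (GGGCGG on either strand), and also TGCGCA in Smarca4 and CCAAT in Ino80.
Smarca4: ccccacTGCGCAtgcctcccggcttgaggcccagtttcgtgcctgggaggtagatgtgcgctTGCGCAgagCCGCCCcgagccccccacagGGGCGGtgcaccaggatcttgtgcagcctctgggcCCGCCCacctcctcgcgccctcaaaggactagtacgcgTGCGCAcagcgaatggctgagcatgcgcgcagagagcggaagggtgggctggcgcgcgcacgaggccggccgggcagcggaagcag
Ino80: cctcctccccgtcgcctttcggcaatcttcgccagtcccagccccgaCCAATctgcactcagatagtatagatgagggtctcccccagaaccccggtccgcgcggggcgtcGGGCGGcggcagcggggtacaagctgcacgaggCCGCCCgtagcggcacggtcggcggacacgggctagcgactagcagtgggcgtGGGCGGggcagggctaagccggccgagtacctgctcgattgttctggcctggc
Neither window held a TATAAA on either strand. The Smarca4 window held 3 GC boxes and 3 copies of TGCGCA, and the Ino80 window 3 GC boxes and 1 CCAAT. Over the same 250-base windows, all 10 members held a GC box, against 32.9% of 27025 promoters, and 0 held a TATAAA, against 13.0%. The RefSeq start was not always the start of the annotated gene. The windows of Smarcc1 and Arid1b lay inside the gene, and those of Smarca2, Smarca5 and Smarcb1 overlapped its first bases. CCAAT was found in 1 member and in 34.5% of promoters, and TGCGCA in 3 members and in 6.66% of promoters. The members' windows were also rich in G and C, with a median of 68.8% against 52.0% for all promoters. Their CG pairs, observed over expected from base content, had a median of 0.917 against 0.378. The shares of GC boxes, TGCGCA and the other motifs were therefore not read as particular to them.

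The 10 genes were expressed at very different levels, and the first, second and last places were the same in all 4 samples. Compared per kb of annotated exon (CPM per kb), Arid1a came first in all 4 samples, at 109 in MO injected, 72.4 in MO control, 107 in S31A injected and 87.8 in S31A control zygotes. It lay above 89.2% to 92.7% of the genes measured there, where measured means at least 10 CPM in the sample. Ep400 was second in every sample, at 24.0, 27.6, 25.4 and 27.0 CPM per kb in the same order. Chd4, Smarca2 and Arid1b followed, with means over the 4 samples of 19.7, 16.8 and 12.9 CPM per kb, and their library ranges overlapped with each other and with that of Ep400. Smarca4, Smarca5, Ino80 and Smarcb1 had means of 8.26, 7.85, 7.64 and 7.497 CPM per kb, and their ranges overlapped with each other and with that of Arid1b. Smarcc1 was last in all 4 samples, with a mean of 0.958 CPM per kb, and was the only member under 10 CPM in some samples. The length used was that of all annotated exon bases merged. It can exceed a transcript's length, at 7777 bases for Smarca5 against 6113 in its longest protein-coding transcript. Levels per kb compared between genes depend on this length, so their order and fold differences are approximate. The comparison of a gene pair between libraries does not depend on it.

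**Figure D1:**
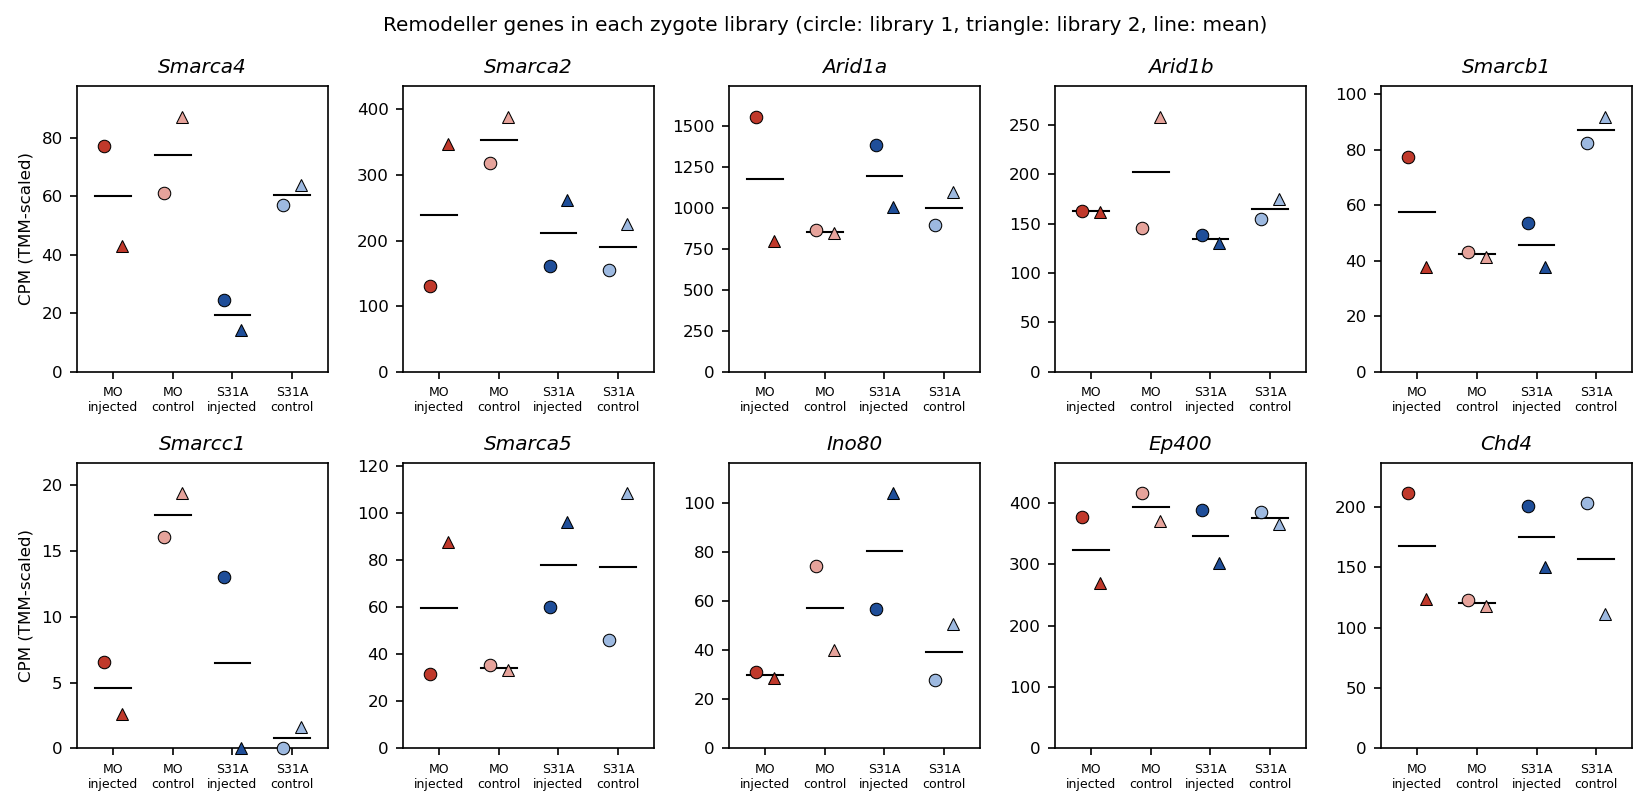
Level of each gene in CPM (vertical axis, linear from 0, scaled per gene) in the libraries of MO injected, MO control, S31A injected and S31A control zygotes. Circles are library 1, triangles library 2 and lines their mean; Smarca4 in S31A injected zygotes lies at 24.6 and 14.3 CPM, below all other libraries.

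Few members differed by 2-fold or more in either experiment. After MO injection, 1 of 10 members was at least 2-fold lower, Smarcc1, and 0 were at least 2-fold higher, and the shares over all 8110 measured genes were 12.5% lower and 11.3% higher. After S31A injection, 1 of 9 measured members was at least 2-fold lower, Smarca4, and 0 were higher, against 16.1% and 14.1% of 8191 genes. The shares among members were close to or below those among all genes. In S31A control over MO control zygotes, 2 of 10 members were at least 2-fold higher, Smarca5 and Smarcb1, and 1 lower, Smarcc1, against 13.6% and 16.2% of 8266 genes. Without S31A control library 2, those past 2-fold were Smarcc1, Smarca2 (-1.14) and Ino80 (-1.11), and neither Smarca5 nor Smarcb1. With MO and between controls, Smarcc1 was at 10 CPM or more only in MO control, so it could only be counted as lower. The members' median log2 ratio was -0.15 with MO, -0.03 with S31A and -0.09 between controls, beside 0.03, 0.02 and 0.05 for all measured genes. Scaling by total counts alone moved the median of all genes to -0.09 with MO and -0.09 with S31A, and with MO it gave 714 genes higher and 1261 lower, against 913 and 1017 with the scaling used.

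Both injected libraries lay on the same side of both control libraries for 3 of 10 members in the MO experiment (40.5% of measured genes) and for 4 of 9 in the S31A experiment (39.5%). With MO, 1 was higher, Chd4, and 2 were lower, Smarcc1 and Ino80, against 19.2% and 21.3% of genes. With S31A, 1 was higher, Ino80, and 3 were lower, Smarca4, Smarcb1 and Arid1b, against 19.8% and 19.8% of genes. In S31A control over MO control zygotes, 3 of 10 were higher, Smarca5, Smarcb1 and Arid1a, and 2 lower, Smarcc1 and Smarca2 (46.4% of genes in all, 21.2% higher and 25.2% lower), and 3 of 10 had a ratio larger than both gaps between libraries, against 30.9% of genes. The log2 ratio was larger than the gap between libraries within either sample for 2 members with MO, Ino80 and Smarcc1, and for 4 with S31A, Smarca4, Smarcb1, Arid1b and Ino80. The same held for 24.7% and 25.3% of measured genes. edgeR's quasi-likelihood test was run over the libraries, so its p-values compare these libraries and not the conditions. It passed 0 of 10 members with MO (lowest Benjamini-Hochberg adjusted p = 0.825) and 0 of 9 with S31A (lowest adjusted p = 0.802), where 0% and 0.0244% of genes passed. At an unadjusted p under 0.05 there were 0 members with MO and 1 with S31A, Smarca4, against 5.29% and 5.98% of genes. DESeq2 over the same libraries called 0 members with MO and 1 with S31A, against 0.666% and 7.34% of genes.

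**Figure D2:**
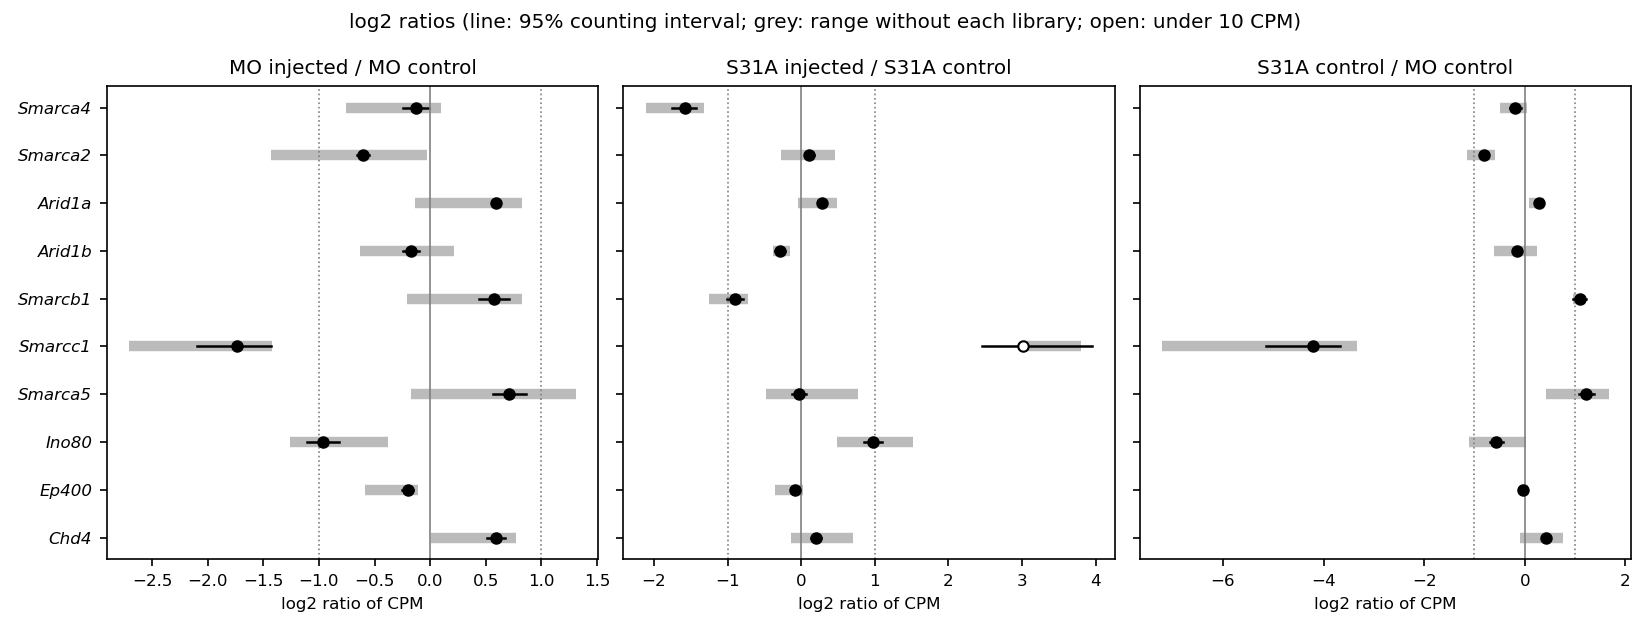
log2 ratio of each gene (horizontal axis; each panel has its own scale) for MO injected over MO control, S31A injected over S31A control, and S31A control over MO control. Points are the ratio of summed counts and black lines 95% counting intervals. Grey bars are the range when each library is left out, and dotted lines mark 2-fold. Open points are genes under 10 CPM in both samples. Among genes at 10 CPM or more, only Smarca4 with S31A and Smarcc1 with MO lie beyond 2-fold over whole grey bars after injection. Smarcc1 reached 10 CPM with MO only in the control. Values under 10 CPM in both samples are left out of a bar, so the Smarcc1 bar with S31A does not show its full range.

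Smarca4, the BRG1 ATPase, lies on chromosome 9 from 21616169 to 21704230 in mm10, on the plus strand. It stood at 24.6 and 14.3 CPM in the S31A injected libraries, against 56.8 and 63.9 CPM in the S31A control libraries. Both injected libraries lay below both controls, with a gap of 1.204 log2 units between the nearest of them. Smarca4 was 2.999-fold lower in S31A injected zygotes (log2 ratio -1.58, 95% interval -1.75 to -1.43), and the ratio was -2.11 to -1.32 when any 1 library was left out. Without replicate samples, this difference has no replicate check, and in bulk RNA fewer expressing cells and less RNA per cell cannot be told apart. Over the libraries the Benjamini-Hochberg adjusted p was 0.802 from edgeR and 0.0176 from DESeq2. In the MO experiment it stood at 77.1 and 43.1 CPM in the injected libraries, against 61.0 and 87.1 CPM in the control libraries, and the groups overlapped. That log2 ratio was -0.12, -0.75 without MO injected library 1 and 0.10 when MO control library 2 was left out. The S31A ratio minus the MO ratio was -1.46 for Smarca4, and in edgeR's interaction test over all 8 libraries its adjusted p was 0.85. An effect particular to S31A was therefore not shown.

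Smarca2, the BRM ATPase on chromosome 19 from 26605050 to 26778322, can take the place of BRG1 in the complex. It stood at 161 and 262 CPM in S31A injected libraries and at 155 and 225 CPM in S31A control libraries, which overlapped (log2 ratio 0.11, and -0.28 to 0.46 with a library left out). In the MO experiment it stood at 131 and 346 CPM in injected libraries, against 318 and 389 CPM in control libraries. The log2 ratio of -0.60 rested on MO injected library 1, without which it was -0.03, and was -1.43 without MO injected library 2. Per kb, Smarca4 was below Smarca2 in 7 of 8 libraries; MO injected library 1 was the exception. The ratio of Smarca4 to Smarca2 within a library does not depend on scaling. It was 0.336 and 0.120 in S31A injected libraries, against 0.806 and 0.625 in S31A control libraries, with no overlap. In the MO experiment it was 1.30 and 0.274 in injected libraries, against 0.422 and 0.494 in control libraries, so the injected libraries lay on either side of the controls.

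Arid1a, on chromosome 4 from 133679008 to 133756769, had 1556 and 798 CPM in MO injected libraries, against 865 and 846 CPM in MO control libraries. In S31A injected libraries it had 1383 and 1002 CPM, against 897 and 1099 CPM in S31A control libraries. The groups overlapped in both experiments, with log2 ratios of 0.59 and 0.28. Without MO injected library 1 the MO ratio was -0.13, and without S31A injected library 1 the S31A ratio was -0.04. Arid1b, on chromosome 17 from 4994332 to 5347656, had 163 and 162 CPM in MO injected libraries, against 145 and 258 CPM in MO control libraries (log2 ratio -0.17, -0.26 without MO injected library 1, and 0.21 without MO control library 2). In S31A injected libraries it had 138 and 130.5 CPM, against 155 and 175 CPM in S31A control libraries. Both S31A injected libraries lay below both controls, at a log2 ratio of -0.29 (interval -0.36 to -0.22; -0.15 without S31A control library 2). Arid1a exceeded Arid1b per kb in every library, by 10.5-fold and 5.41-fold in MO injected and 6.55-fold and 3.598-fold in MO control libraries. The excess was 11.004-fold and 8.43-fold in S31A injected libraries, against 6.36-fold and 6.90-fold in S31A control libraries, which did not overlap.

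Smarcb1, the SNF5 core subunit, lies on chromosome 10 from 75896769 to 75921617. It stood at 53.7 and 37.8 CPM in S31A injected libraries, against 82.6 and 92.0 CPM in S31A control libraries. It was 1.87-fold lower, with no overlap (log2 ratio -0.90, interval -1.01 to -0.79; -1.25 to -0.73 with a library left out, and past 2-fold without S31A injected library 1). Smarcb1 also differed between the controls, where it was 2.13-fold higher in S31A control than in MO control zygotes (43.3 and 41.4 CPM), at a log2 ratio of 1.09 and of 0.97 without S31A control library 2. The S31A injected libraries were thus close to the MO controls, at 47.1 CPM summed against 41.2 CPM. With MO injection it stood at 77.4 and 37.7 CPM, on either side of the MO controls (log2 ratio 0.57, and -0.20 without MO injected library 1). Set against Arid1a within each library, per kb, Arid1a was 17.8-fold and 18.3-fold higher than Smarcb1 in S31A injected libraries and 7.502-fold and 8.26-fold higher in S31A control libraries. The same ratio was 13.9 and 14.6 in MO injected libraries and 13.8 and 14.1 in MO control libraries. The pair was chosen for this ratio after its values were seen. For no ratio between subunit genes was the share of other gene pairs without overlap counted.

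**Figure D3:**
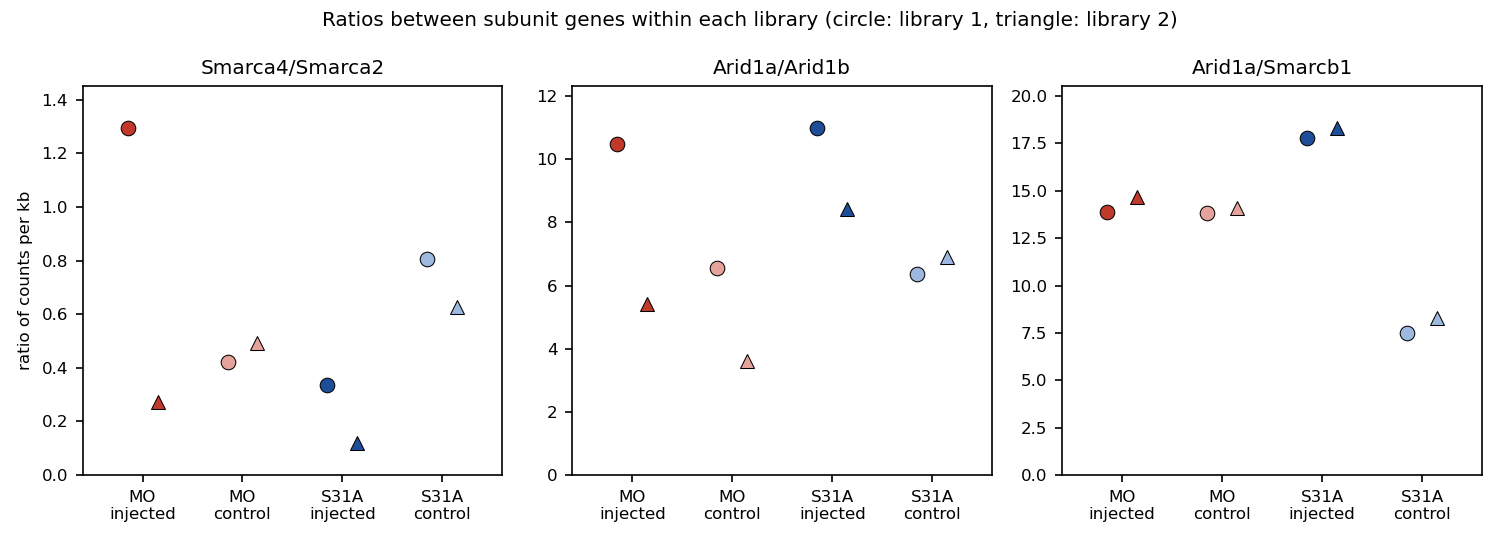
Ratio of counts per kb between 2 genes within each library (vertical axis, linear from 0), for Smarca4 over Smarca2, Arid1a over Arid1b and Arid1a over Smarcb1, in MO injected, MO control, S31A injected and S31A control zygotes. Circles are library 1 and triangles library 2. In all 3 panels the S31A injected libraries do not overlap the S31A controls, and how many other gene pairs do the same was not counted. Of ratios not shown, Smarca4 over Smarcb1 did not overlap with S31A. That of Smarcc1 to another SWI/SNF subunit overlapped, at 1.10 and 0 in S31A injected and 0 and 0.0343 in S31A control libraries.

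Smarcc1, the BAF155 scaffold, lies on chromosome 9 from 110117708 to 110240178, and was the least abundant member. It had 86 and 24 counts in MO injected libraries (6.59 and 2.62 CPM), against 148 and 118 counts in MO control libraries (16.1 and 19.4 CPM). It was 3.34-fold lower with no overlap (log2 ratio -1.74, interval -2.09 to -1.43; -2.71 when MO injected library 1 was left out and -1.42 when library 2 was), and it passed the 10 CPM filter only through the control. Between the controls the difference was larger. Smarcc1 was 18.4-fold lower in S31A control than in MO control zygotes, with no overlap. That log2 ratio was -4.21, and -7.21 to -3.34 with a library left out. In the S31A experiment Smarcc1 had 153 and 0 counts in injected libraries, against 0 and 18 counts in control libraries. Its level there rested on S31A injected library 1 alone and stayed under 10 CPM in both samples, so no difference was counted. The upper limit set by 0 counts, at 3 counts a library, is far below the partner library's 153 counts, so the gap between libraries of a sample was larger than counting error. Kitl, the cumulus and granulosa marker that carried nearly all of that list's sum, was at 11.8 and 15.5 CPM in MO injected libraries and 10.9 and 22.9 CPM in MO control libraries. It was at 26.3 and 0 CPM in S31A injected libraries and 0.0934 and 0 CPM in S31A control libraries, so like Smarcc1 it was present in S31A injected library 1. The sperm marker Odf1 had 79 counts (6.74 CPM) in S31A injected library 1 and 0 in all other libraries. Of the other cumulus and granulosa markers, Cyp11a1 had 16 counts in MO control library 2 alone. Inha had 1 count in S31A injected library 2 alone. Amh, Fshr, Foxl2, Ptx3 and Tnfaip6 were at 0 in all 8 libraries. The part of other cells in the Smarcc1 counts was not tested. Gm7004, a processed pseudogene on chromosome 14 that matched 24.8% of the longest Smarcc1 transcript at 91.1% identity, had 287 counts over the 8 libraries, against 547 for Smarcc1. Of the Smarcc1 exon bases, 123 (1.57%) overlap Dhx30 on the opposite strand, and whether counting used strand is not known. The CPM of Gm7004 summed with Smarcc1 gave a log2 ratio of -1.56 with MO.

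Smarca5, the ISWI motor that slides and spaces nucleosomes, lies on chromosome 8 from 80698507 to 80739497. It stood at 31.5 and 87.6 CPM in MO injected libraries, against 35.5 and 33.2 CPM in MO control libraries. In S31A injected libraries it stood at 60.1 and 96.2 CPM, against 45.9 and 109 CPM in S31A control libraries. The groups overlapped in both experiments, with log2 ratios of 0.71 and -0.03; without MO injected library 1 the MO ratio was 1.31, and without MO injected library 2 it was -0.17. With S31A, leaving out control library 2 gave 0.78 and leaving out control library 1 gave -0.48, so its sign rested on single libraries. Between the controls it was 2.34-fold higher in S31A control than in MO control zygotes, with no overlap (log2 ratio 1.23, and 0.42 without S31A control library 2).

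Most counts of Smarca5 sequence were not on the gene itself. A group of 6 processed pseudogenes on chromosome 4, Gm13034, Smarca5-ps, Gm13135, Gm13140, Gm13136 and Gm13231, matched 46.8% to 51.6% of the longest Smarca5 transcript at 96.6% to 98.1% identity. Together they held 11921 counts over the 8 libraries, against 5073 on Smarca5. The gene's share of this sum was 18.6% and 34.1% in MO injected, 28.3% and 19.7% in MO control, 34.8% and 38.3% in S31A injected and 20.8% and 35.2% in S31A control libraries. The labels do not say how reads matching several places were assigned, so the level of Smarca5 is uncertain. Summed with its copies, the log2 ratio was 0.58 with MO, -0.35 with S31A and 0.95 between controls. The sum was chosen after the copies were found to hold counts. None of the other 8 members had such a copy covering 20% or more of its longest transcript.

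**Figure D4:**
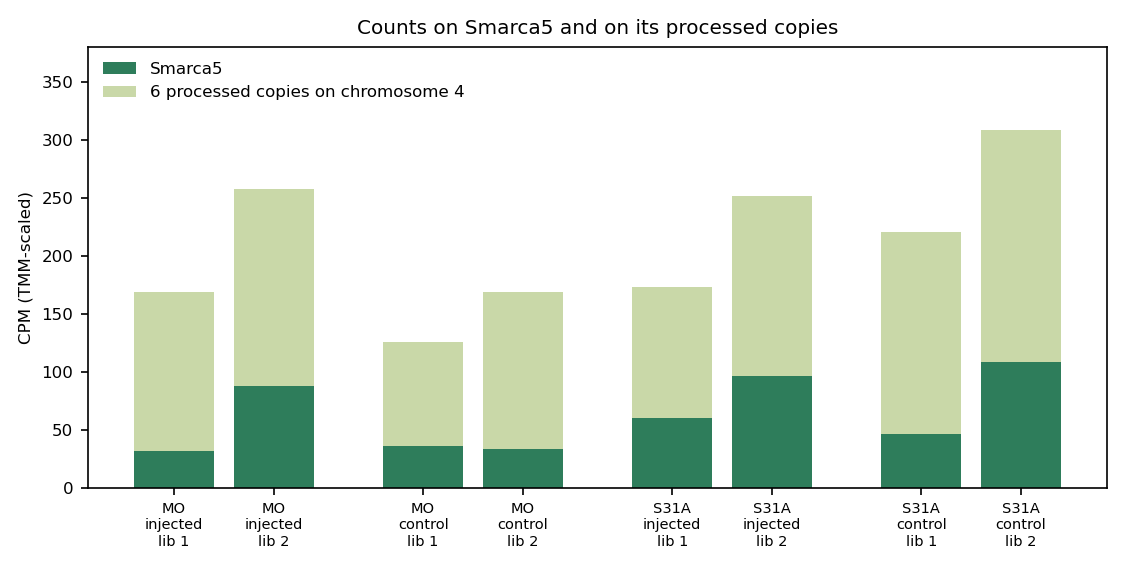
Stacked CPM (vertical axis, linear from 0) on Smarca5 and on its 6 processed copies in each library of MO injected, MO control, S31A injected and S31A control zygotes. In every library the copies hold more than the gene, whose share of the stack runs from 18.6% to 38.3%.

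Ino80, the motor of the INO80 complex, lies on chromosome 2 from 119373042 to 119477687. It had 31.1 and 28.6 CPM in MO injected libraries, against 74.6 and 40.1 CPM in MO control libraries. In S31A injected libraries it had 56.9 and 104 CPM, against 27.9 and 50.7 CPM in S31A control libraries. The injected libraries lay below both controls with MO and above both controls with S31A, and the nearest libraries were 0.37 and 0.16 log2 units apart. With MO, Ino80 was 1.95-fold lower in injected zygotes (log2 -0.96, counting interval -1.11 to -0.82) and 1.97-fold higher after S31A injection (0.98, interval 0.86 to 1.10). Leaving out a library gave -1.26 to -0.38 with MO, the smallest without MO control library 1, and 0.49 to 1.52 with S31A, the smallest without S31A injected library 2. It passed 2-fold without MO control library 2 (-1.26), MO injected library 1 (-1.115), S31A control library 2 (1.52) or S31A injected library 1 (1.34). The S31A ratio minus the MO ratio was 1.94, and its interaction test over all 8 libraries gave an unadjusted p of 0.0415 and a Benjamini-Hochberg adjusted p of 0.766 with edgeR, where 0.0334% of 8981 genes passed and 6.47% had an unadjusted p under 0.05. DESeq2 gave an adjusted p of 0.417 and called 1.97% of genes. The difference between the experiments thus failed the correction over all genes. How many other genes lay on opposite sides of their controls in both experiments was not counted.

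Ep400, the p400 motor of the TIP60 complex, which exchanges histone H2A.Z and has been linked to H3.3 deposition in human cells, lies on chromosome 5 from 110664373 to 110770717. It was the steadiest member, with its highest library 1.54-fold above its lowest. It had 377 and 270 CPM in MO injected libraries and 416 and 370 CPM in MO control libraries. In S31A injected libraries it had 389 and 302.5 CPM, against 385 and 365 CPM in S31A control libraries. The groups overlapped in both experiments, with log2 ratios of -0.20 and -0.09. Without MO injected library 1 the MO ratio was -0.59, and MO injected library 2 alone lay below both controls. Without S31A injected library 1 the S31A ratio was -0.35. Chd4, the NuRD motor, lies on chromosome 6 from 125095981 to 125130591. It had 212 and 124 CPM in MO injected libraries, against 123 and 118 CPM in MO control libraries. The groups did not overlap, but the nearest libraries were 0.01 log2 units apart, and the log2 ratio of 0.59 was 0.01 without MO injected library 1. With S31A it had 201 and 151 CPM in injected libraries, against 203 and 112 CPM in control libraries, which overlapped (log2 ratio 0.20, and -0.14 to 0.71 with a library left out).

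The other subunits of the same complexes were described from a list of 74 genes found in the table. With MO injection, 6 of the 50 that were measured stood 2-fold or more higher and 7 lower, beside the 11.3% and 12.5% of all genes. With S31A injection, 7 of 51 were higher and 9 lower, beside 14.1% and 16.1%. Their median log2 ratios were 0.11 with MO and -0.11 with S31A, beside 0.03 and 0.02 for all measured genes. Among those with libraries that did not overlap, the SWI/SNF subunits Bicral (-2.74), Bicra (-1.51) and Brd9 (-1.45) and the TIP60 subunit Mrgbp (-1.67) were lowest with MO by log2 ratio. Bicral and Bicra are alternative subunits of the BRD9 form of SWI/SNF. Of the 15 SWI/SNF subunits on the list that were measured with MO, 5 lay below both controls and 4 above. Over all measured genes the shares were 21.3% and 19.2%. Bicral had 0.843 and 11.02 CPM in MO injected libraries, against 38.3 and 31.2 CPM in MO control libraries. Brd9, a bromodomain subunit of the same form, had 3.22 and 18.9 CPM in MO injected libraries, against 28.9 and 25.5 CPM in MO control libraries. In the S31A control libraries Brd9 had 43.2 and 1.85 CPM, so it also differed widely within a control sample. Without MO injected library 1, Brd9 (-0.57) and Mrgbp (-0.95) were under 2-fold, and Bicral was at -1.70. Bicra was under 2-fold without MO control library 1 (-0.62). Bicral, Bicra and Brd9 were under 10 CPM in the summed MO injected sample and passed the filter only through the control.

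On the higher side with MO were Ino80c (1.96), Pole3 (1.31) and the histone-binding NuRD subunit Rbbp4 (1.16). Each was under 2-fold without MO injected library 1, at 0.92 for Ino80c, 0.72 for Pole3 and 0.33 for Rbbp4. With S31A the highest were Ino80c (2.87), Pole3 (1.41), the TIP60 bromodomain subunit Brd8 (1.38) and the NuRD subunit Mta1 (1.33). Pole3 was under 2-fold without S31A injected library 1 (0.88) or S31A control library 1 (0.86), and Mta1 without S31A injected library 1 (0.35). Brd8 stayed past 2-fold, at 1.16 to 1.70, and Ino80c was at 1.88 without S31A control library 2. Ino80c in both experiments and Mta1 with S31A were under 10 CPM in the summed control and passed the filter only through the injected sample. Pole3, a histone-fold subunit shared by the ISWI complex CHRAC and DNA polymerase epsilon, had 258 and 149 CPM in MO injected libraries, against 76.2 and 109 CPM in MO control libraries. It had 233 and 136 CPM in S31A injected libraries, against 33.8 and 107 CPM in S31A control libraries. Ino80c, an INO80 subunit, had 44.0 and 16.9 CPM in MO injected libraries, against 10.3 and 6.25 CPM in MO control libraries. It had 69.9 and 29.0 CPM in S31A injected libraries, against 14.5 and 0 CPM in S31A control libraries. Both genes thus lay above both controls in each experiment, which the rule for naming genes required in each. Of all measured genes, 19.2% lay above both controls with MO and 19.8% with S31A. The share doing so in both experiments was not counted.

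On the lower side with S31A, Ino80e had 0 counts in both injected libraries, against 4.30 and 17.2 CPM in S31A control libraries, and was at least 76.7-fold lower (floor of 3 counts over the summed sample). Chd5, a NuRD ATPase best known from neurons, also had 0 counts in both, against 11.9 and 10.02 CPM in S31A control libraries, and was at least 76.4-fold lower. Dpf3, a SWI/SNF reader of histone marks, stood at 1.53 and 7.28 CPM in S31A injected libraries, against 25.8 and 20.7 CPM in S31A control libraries (log2 ratio -2.47). In MO control libraries Dpf3 stood at 83.8 and 145 CPM, so the controls of the experiments differed as well. Kat5, the TIP60 acetyltransferase, stood at 0.597 and 5.89 CPM, against 14.2 and 9.93 CPM in S31A control libraries (log2 ratio -1.99). All 4 genes were under 10 CPM in the summed S31A injected sample and passed the filter only through the control, so a lower value was the only large difference they could show. Without S31A control library 2, Ino80e was at 4.24 CPM in the control, under the filter, and at least 29.2-fold lower. Without S31A control library 1, Chd5 (9.93 CPM) and Kat5 (9.84 CPM) were under the filter in both samples. Chd5 was at least 35.1-fold lower without S31A injected library 1. Without S31A injected library 1, Dpf3 was at -1.70 and Kat5 at -1.06. The bounds cover counting error only.

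**Figure D5:**
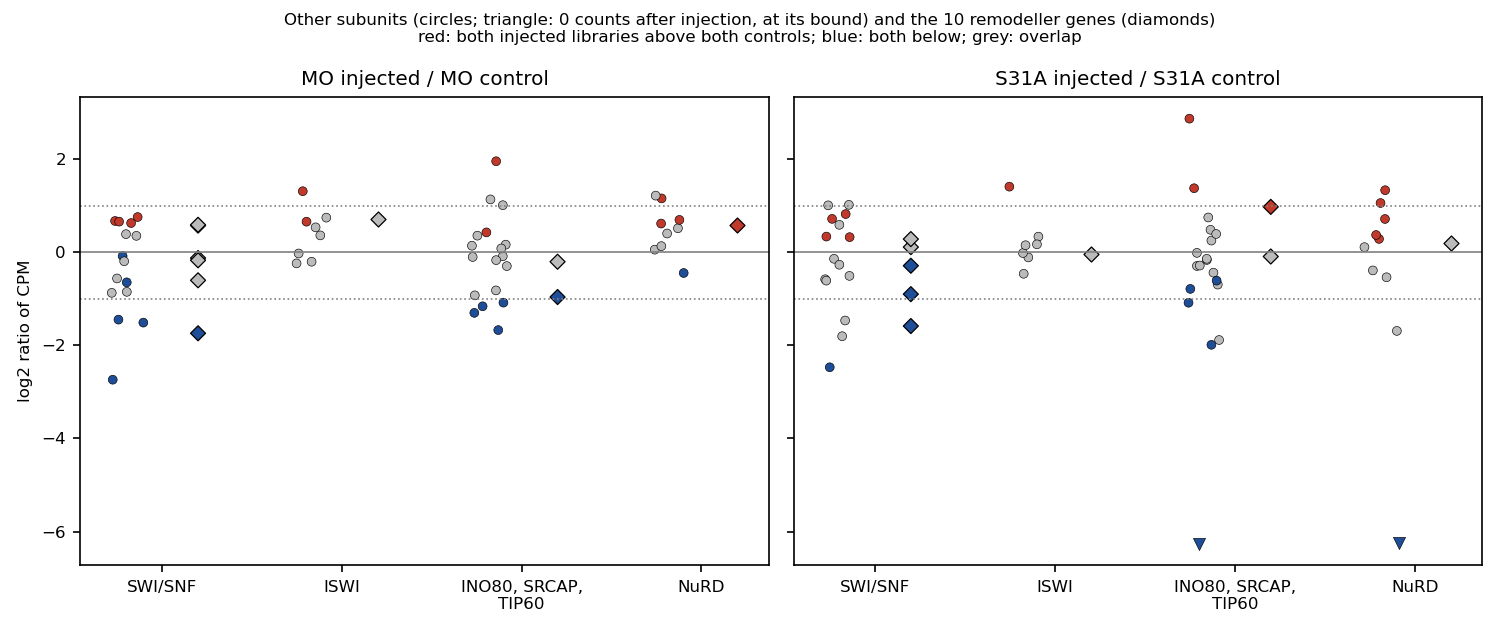
log2 ratio (vertical axis) of other subunits with at least 10 CPM (circles, and triangles at their bound where the injected sample had 0 counts) and of the remodeller genes themselves (diamonds), by complex, for MO injected over MO control and S31A injected over S31A control. Red, blue and grey mark injected libraries above both controls, below both controls and overlapping; most genes of each complex lie between the dotted lines at 2-fold.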

How the data were processed

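Gene counts were deposited by the authors as raw whole numbers with no normalization, with gene lengths in bases (another value per the file headers), and each of the 4 samples had 2 count columns. The submitters' processing notes name mm10 as the build and list featureCounts, Bowtie2, DESeq2 and FastQC. Their versions, the annotation release and the strand and multi-mapping settings are not given in the sources used. An aligner that does not split reads over introns can lose junction reads or place them on intronless copies. Gene coordinates were the same in GENCODE M21 for all 10 members.

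Counts of both libraries were added for each sample, with TMM scaling (edgeR 4.0.16, R 4.3.3). The log2 ratio used a prior count of 2, over genes at 10 CPM or more in either sample, and 2-fold was counted. Intervals are exact 95% Clopper-Pearson intervals and, like floors of 3 counts, cover counting error only, since there were no molecular identifiers. Tests over libraries used edgeR's quasi-likelihood test and DESeq2 1.42.0, were tested on simulated data, and measure only the spread between libraries of a sample, which may be technical. Copies were sought for the 10 members with BLAST 2.17.0 against GENCODE M21 transcripts at 20% coverage or more. Promoter windows came from RefSeq, 1 per gene, with 10 of 10 members matched. All 10 members were named, and of the related genes up to 4 highest and 4 lowest per experiment by log2 ratio, at 2-fold or more with libraries that did not overlap. The members and lists were chosen with earlier results of these data known. Alternatives were DESeq2 size factors, total counts, filters of 1 and 50 CPM or none, a prior count of 0.5, the mean over libraries, and each library left out. The libraries of a sample differed by far more than sampling noise (chi-square over genes with 10 or more counts, 47.1 to 122.6 times its degrees of freedom).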

Additional observations from a re-analysis of the deposited data

Results flagged for a closer look

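Ino80 stood on opposite sides of its controls in the 2 experiments: both injected libraries lay below both controls with MO (31.1 and 28.6 CPM, against 74.6 and 40.1 CPM) and above both controls with S31A (56.9 and 104 CPM, against 27.9 and 50.7 CPM). The S31A log2 ratio minus the MO log2 ratio was 1.94, with 1 sample per group. In edgeR's interaction test over the libraries its Benjamini-Hochberg adjusted p was 0.766, and over the alternatives it was 0.417, from DESeq2, to 0.9999. The difference therefore did not pass a test. Of all measured genes, 19.2% lay above and 21.3% below both controls with MO, and 19.8% and 19.8% with S31A. The share on opposite sides in the 2 experiments was not counted, so this was not read as particular to Ino80.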

How the results depend on the processing

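Smarca4 with S31A and Smarcc1 with MO kept their direction and stayed at least 2-fold apart under each alternative in which they were measured. At the filter of 10 CPM Smarcc1 passed only through MO control, so a lower value was the only large difference it could show. Members at least 2-fold apart with MO numbered 2 with scaling by total counts, where Ino80 was added, 0 with a filter of 50 CPM, which Smarcc1 did not pass, and 1 to 3 without each library. With S31A they numbered 2 with a filter of 1 CPM and 2 with none, where Smarcc1 was added, 2 with the mean of library values, where Ino80 was added, and 1 to 3 without each library. Between controls there were 3 each time a library was left out, but not the same genes: without S31A control library 2 they were Smarcc1, Smarca2 and Ino80 in place of Smarcc1, Smarca5 and Smarcb1. Of the related genes named, the ratios without each library were chosen after the libraries' values were seen. The members' median with MO was -0.26 with total counts, -0.275 with the mean of library values and -0.2444 to 0.1576 without each library; with S31A it was -0.13, 0.11 and -0.1256 to -0.0866; between controls it was -0.16 to 0.14 without each library. DESeq2 called 1 member with S31A, Smarca4, where edgeR called 0. Related genes at least 2-fold apart, 13 with MO, 16 with S31A and 10 between controls, numbered 22 with MO and 17 between controls at 1 CPM, 2, 4 and 4 at 50 CPM, and 24, 27 and 20 with no filter. Without each library they numbered 7 to 21 with MO, 12 to 21 with S31A and 10 to 17 between controls. The cause of these shifts was not tested beyond the number of genes kept by each filter. No paired analysis was possible because each group was 1 sample. Low counts limit Smarcc1 most, with 0 to 153 per library. MO control library 2, with 5661621 counts in total, held 118 of them, and S31A control library 1, with 10436258, held 0. The use of 1 sample per group limits every comparison.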
